A study of Mus musculus with 19 samples.

Results

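The 10 genes described here are Trp53, which encodes the transcription factor p53, and 9 genes known as its direct targets. By role they are the feedback inhibitor Mdm2, the cell cycle genes Cdkn1a and Ccng1, and the death and survival genes Pmaip1, Bbc3, Bax, Eda2r, Trp53inp1 and Phlda3. They were taken by name from a table of raw read counts per gene, in which they are 10 of 26621 genes. All 10 passed the filter on low counts, which left 13105 genes for testing.

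p53 is held at a low level by MDM2, an E3 ubiquitin ligase that marks it for breakdown and is itself made from a p53 target gene. Stress such as DNA damage releases p53, which then binds paired copies of a short motif near its targets and raises their transcription. The products stop the cell cycle, start cell death through the mitochondrion, or feed back on p53. In neural progenitors p53 is known for limiting self-renewal and for removing damaged cells, and its protein is controlled mainly after translation, so the RNA of its targets is the usual readout of its activity.

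The libraries came from neural progenitor cells of mouse cerebral cortex at embryonic day 17.5, grown in culture on Matrigel with the growth factors bFGF and EGF, which is common to all groups. Cells were wild type (WT) or had a conditional knockout (cKO) of Mettl8, whose product is a mitochondrial RNA methyltransferase that makes 3-methylcytidine in tRNA. RNA-seq by SMART-seq2 covered 6 WT and 6 cKO libraries, and hydrazine-aniline cleavage sequencing (HAC-seq) covered 4 WT and 3 cKO libraries. Library names form 2 sets with both genotypes in each. In set 1 there are 3 WT libraries (replicates 1 to 3) and 2 cKO libraries (replicates 1 and 2), and in set 2 there are 3 WT libraries (replicates 4 to 6) and 4 cKO libraries (replicates 3 to 6). What the sets stand for, the driver of the recombinase, the deleted exons, and whether replicates are separate cultures or animals, are given by no source used here. P-values therefore measure the spread between these libraries, which may be technical.

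Total counts ran from 11830839 to 18863781 per library. The level of a gene is given as CPM, the count relative to library size, scaled by TMM, which corrects for library composition but not for gene length, so levels are compared between libraries and not between genes. Whole-gene counts of the targeted gene Mettl8 were 35.9 to 58.6 CPM in the WT libraries and 59.3 to 80.9 CPM in the libraries labelled cKO, higher in the latter, with an edgeR adjusted p of 0.265 and an unadjusted p of 2.02e-05. Since the deleted exons are unknown here, this count does not check the genotype labels, and every genotype direction below rests on them. Markers of neural progenitors were detected in every library, with Sox2 at 52.7 to 81.6 CPM. Of the microglia markers, C1qa and Tmem119 had no read in any library, while P2ry12 was at 1.32 to 7.76 CPM. Y-linked counts marked 2 of the cKO libraries (replicates 1 and 5) and 0 of the WT libraries as male.

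The motif itself was looked for in the promoters of the genes, in RefSeq windows of build GRCm38.p6 that run from 250 bases before to 50 bases after each annotated start. Windows were on hand for 8 of the 10 genes, 11 windows in all, and not for Pmaip1 and Trp53inp1. The p53 consensus decamer was searched on both strands, alone and as an adjacent pair of 20 bases. An exact decamer was present in 5 of the 11 windows (Trp53, Cdkn1a, Mdm2, Bax and Ccng1), against 8.36% of 32851 windows of the same length. Pairs with at most 1 mismatch were found for Cdkn1a and Ccng1, against 0.0883% of all windows. The best adjacent pairs of Trp53, Bbc3 and Bax had 3 mismatches, which 6.29% of all windows reached or bettered. With up to 13 bases allowed between the decamers, Cdkn1a had an exact pair (12 bases apart), against 0.0731% of all windows. Bax then had a pair with 1 mismatch (1 base apart), as Ccng1 had with none between, and 1.09% of all windows had a pair with at most 1 mismatch. The stretches of Cdkn1a, Ccng1 and Bax are shown because these 3 genes had the closest spaced pairs. They are written 5′ to 3′ on the gene's own strand, with the best adjacent pair in capitals. For Ccng1 the capitals are also its closest spaced pair. For Cdkn1a and Bax they are not, and the spaced pair of Cdkn1a begins before the stretch shown. The stretches are chr17:29090908-29090967 (plus strand) for Cdkn1a, chr11:40755442-40755501 (minus strand) for Ccng1 and chr7:45467070-45467129 (minus strand) for Bax. Their adjacent pairs start 51, 195 and 211 bases upstream of the annotated start, in that order.
Cdkn1a: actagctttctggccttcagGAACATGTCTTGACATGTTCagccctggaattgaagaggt
Ccng1: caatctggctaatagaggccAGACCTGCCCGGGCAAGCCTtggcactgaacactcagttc
Bax: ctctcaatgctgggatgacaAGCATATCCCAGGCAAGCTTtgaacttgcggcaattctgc
The window of the second annotated start of Cdkn1a, at 29093769 and so downstream of the first at 29090979, had no pair closer than 5 mismatches. The Cdkn1a stretch shown is thus close to the first start only. Sequence outside these windows was not searched. These matches describe letters in a window and say nothing of binding in these cells.

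The comparison of cKO with WT asked whether progenitors labelled as Mettl8 knockout differ from WT in their p53 target RNAs. Of the 10 genes 0 had an adjusted p under 0.05 (edgeR quasi-likelihood test with library set as a covariate), and the share of all 13105 genes that passed was 0%. Pmaip1, the gene of the death protein NOXA, came nearest, with a level 1.31 times that of WT over all libraries. The 95% intervals of the log2 fold change lay between -0.29 and 0.29 for each of the others but Bbc3. At an unadjusted p under 0.05 there were 2 of the 10, Pmaip1 and Eda2r, against 6.14% of all genes. DESeq2 and limma-voom called 0 of the 10 as well. The fitted difference was positive for 7 genes and negative for 3, with a median log2 fold change of 0.07 for the 10 genes and -0.000996 for all genes. The 6 cKO and 6 WT libraries were without overlap in 0 of the 10 genes, against 0.13% of all genes.

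**Figure D1:**
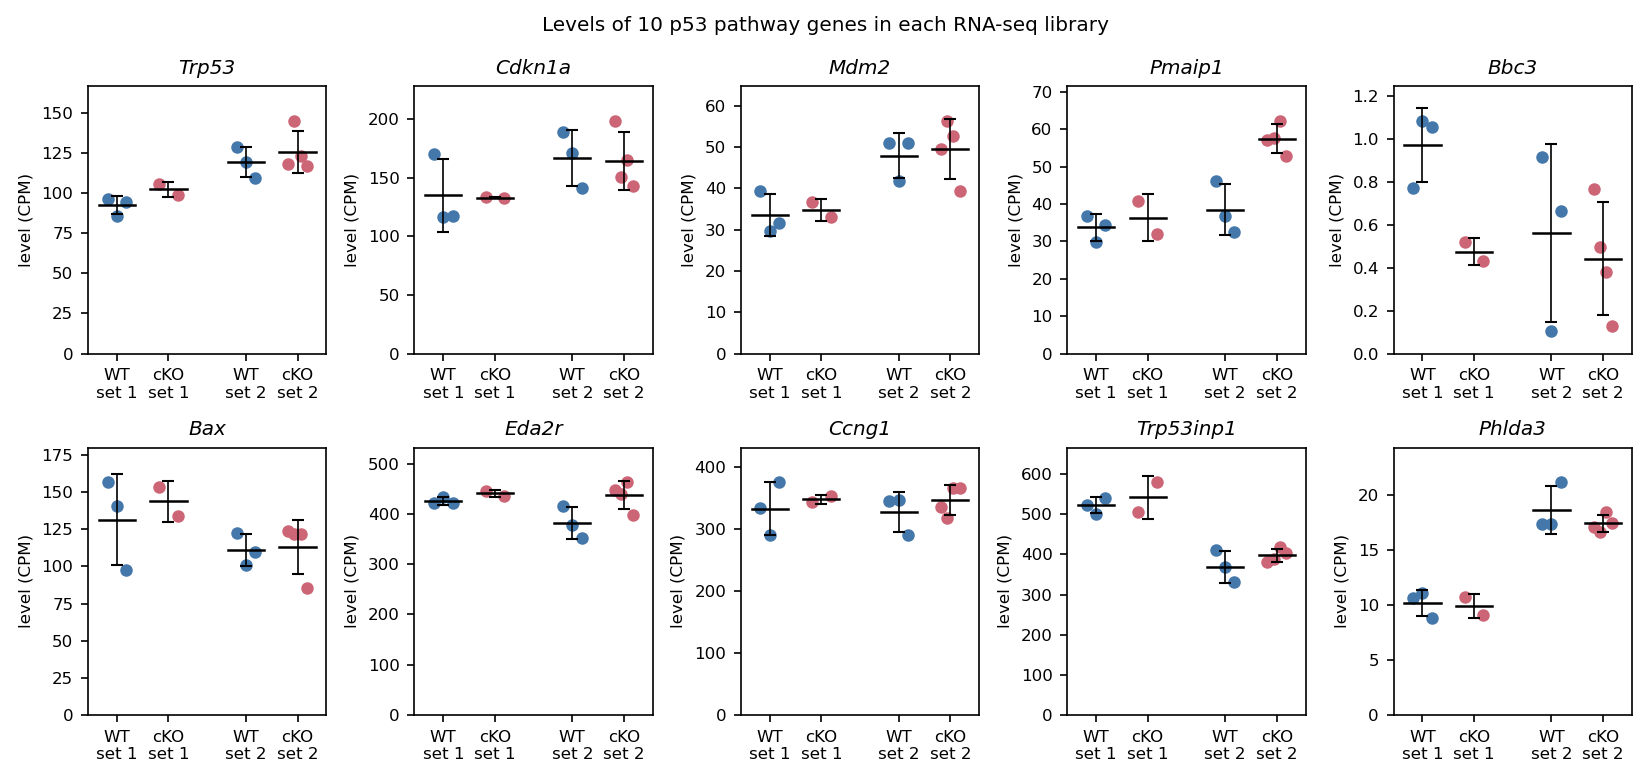
Level of each gene in CPM (vertical axes from 0, each on its own scale) in the 12 RNA-seq libraries, by genotype and library set. Points are libraries, horizontal lines are group means and error bars are the SD (n = 3, 2, 3 and 4 from left to right). The cKO points of set 2 lie above the WT points only for Pmaip1, while Trp53, Phlda3 and Trp53inp1 separate by set.

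Trp53 lies on chromosome 11, 69580348 to 69591873, and this and the gene spans below are those of RefSeq on GRCm38.p6. Its RNA was at 86.1, 94.9 and 96.5 CPM in the WT libraries of set 1 and at 99.2 and 106 in the cKO libraries of set 1. In set 2 it was at 109.9, 119.7 and 129 CPM in WT and at 117, 118, 123 and 145 in cKO. The genotypes did not overlap in set 1 and overlapped in set 2. The log2 fold change over both sets was 0.10 (SE 0.0667), with an edgeR adjusted p of 0.857. A processed pseudogene of Trp53 exists in the mouse genome, and how reads that fit both were counted is not stated.

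Mdm2, the ligase of the feedback loop (chromosome 10, 117688875 to 117710758), was at 29.8, 31.6 and 39.3 CPM in WT and 33.0 and 36.7 in cKO of set 1. Its set 2 levels were 41.6, 51.1 and 51.1 CPM in WT and 39.3, 49.6, 52.7 and 56.3 in cKO. The genotypes overlapped in both sets, and the difference was 0.05 on the log2 scale (95% interval -0.15 to 0.25, edgeR adjusted p 0.954).

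Cdkn1a (chromosome 17, 29090979 to 29100722) encodes p21, the cyclin-dependent kinase inhibitor through which p53 arrests the cell cycle. In set 1 its level was 116, 117 and 170.4 CPM in WT and 132 and 133 in cKO. In set 2 it was 141, 171 and 189 CPM in WT and 142.5, 150.2, 165 and 198 in cKO. In set 1 the WT range enclosed both cKO values, and in set 2 the ranges overlapped. The log2 fold change was -0.02 with a 95% interval of -0.23 to 0.18 (edgeR adjusted p 0.982), and its sign turned when WT replicate 1 was left out (0.05). Ccng1, which encodes cyclin G1, a partner of the phosphatase that acts on MDM2 (chromosome 11, 40748552 to 40755309), ran from 290.3 to 375 CPM in WT with a median of 339 and from 318 to 367 in cKO with a median of 349. Its difference of 0.08 (SE 0.0657) had an edgeR adjusted p of 0.886.

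Pmaip1 stood nearest to a genotype difference. It lies on chromosome 18 and encodes NOXA, a BH3-only protein that frees the death machinery by binding the survival protein MCL1. In set 1 the WT libraries were at 29.9, 34.5 and 36.8 CPM and the cKO libraries at 31.9 and 40.7, which overlap. In set 2 the WT libraries were at 32.6, 36.8 and 46.1 CPM and the cKO libraries at 52.8, 57.0, 57.7 and 62.2, with no WT value as high as the lowest of the 4 cKO values. Over the 12 libraries the log2 fold change was 0.39 (SE 0.108, 95% interval 0.16 to 0.61), or 1.31-fold. This was the 15th smallest p of 13105 genes (unadjusted p 0.00188), and the edgeR adjusted p was 0.803. Without the filter on low counts, edgeR gave Pmaip1 an adjusted p of 0.0153, and over its 20 alternatives the adjusted p ran from that value to 1.00.

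Within set 2 alone the Pmaip1 difference was 0.58 (SE 0.118), or 1.49 times the WT level, the 6th smallest p of all genes, and the edgeR adjusted p was 0.384. DESeq2 called it in that set with an adjusted p of 0.0134. Leaving out each of the 7 libraries in turn, the log2 fold change stayed between 0.47 and 0.73 and the edgeR adjusted p ran from 0.0761 to 0.985. Within set 1 the difference was 0.11 (SE 0.147, edgeR adjusted p 1.00). The difference between the sets was 0.47 (SE 0.195, unadjusted p 0.0263), and the edgeR adjusted p of this interaction was 1.00, so that the sets were not shown to differ. Among the cKO libraries of set 2, the male one (replicate 5) was the highest for Pmaip1, and without it the difference in set 2 was 0.54.

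**Figure D2:**
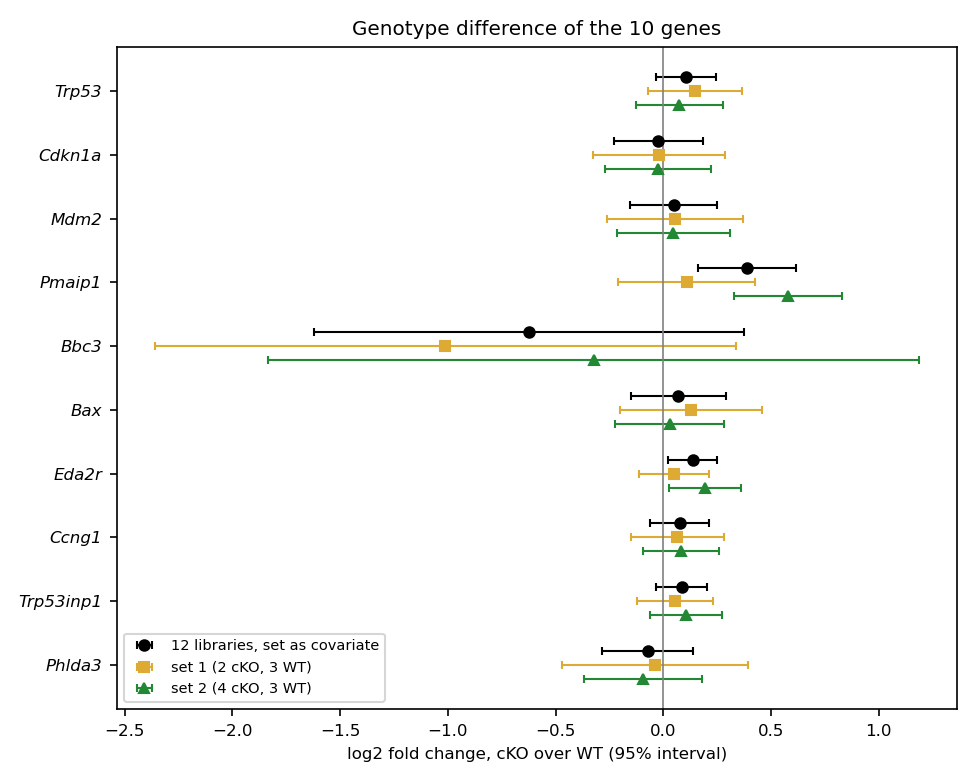
Genotype difference of each gene as log2 fold change (cKO over WT, horizontal axis) with 95% intervals, fitted on 12 libraries with set as a covariate (black), on set 1 (yellow) and on set 2 (green). The interval of Pmaip1 lies above 0 in the fit of 12 libraries (0.16 to 0.61) and in set 2, the lower end for Eda2r is just above 0 (0.02) in the same fit, and Bbc3 has the widest interval.

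The other death and survival genes showed smaller differences or too few reads. Eda2r (chromosome X, 97333837 to 97377234) encodes a receptor of the TNF receptor family. It was at 421, 421 and 434 CPM in WT and 436 and 445 in cKO of set 1. In set 2 it was at 351, 378 and 416 CPM in WT and at 397, 440.1, 447 and 463 in cKO. The cKO libraries were higher without overlap in set 1 and overlapped with WT in set 2. The log2 fold change was 0.14 (SE 0.0549, unadjusted p 0.0234, edgeR adjusted p 0.803), and the mean level was 454 CPM in the male and 430.2 CPM in the female cKO libraries. A pseudogene, Gm18111, shares 674 bases with the span of Eda2r in RefSeq, and counting by strand is not stated.

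Bax (chromosome 7, 45461695 to 45466903) encodes the effector that opens the outer mitochondrial membrane. It was at 97.7 to 157 CPM in WT (median 116) and at 85.7 to 153 CPM in cKO (median 123). The groups overlapped almost fully, with a log2 fold change of 0.07 (SE 0.106) and an edgeR adjusted p of 0.934. Bbc3, which encodes the BH3-only protein PUMA (chromosome 7, 16308398 to 16318334), had only 2 to 19 reads per library. Low counts were mostly even, with 17.4% of the counts from 1 to 10 odd, and whether both mates of a read pair were counted is not stated, in which case fewer fragments than reads stand behind these values. Its level was 0.106 to 1.08 CPM in WT and 0.129 to 0.765 CPM in cKO, and its log2 fold change of -0.62 had a 95% interval of -1.62 to 0.37, so a change in either direction of the size seen for the other genes was not detectable at this depth.

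Trp53inp1, whose product promotes p53 phosphorylation and autophagy (chromosome 4, 11156441 to 11174379), was at 331 to 541 CPM in WT and 379.9 to 579 CPM in cKO. Its difference was 0.08 (SE 0.0568, edgeR adjusted p 0.870), and without the set covariate it was -1.38e-05. Phlda3, an inhibitor of AKT signalling (chromosome 1, 135766085 to 135769134), was at 8.83 to 21.2 CPM in WT and 9.12 to 18.4 CPM in cKO. Its difference was -0.07 (SE 0.102, edgeR adjusted p 0.925), and it turned to 0.05 without the set covariate. Both genes spread far more by library set than by genotype.

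Within the sets no gene of the 10 was called by edgeR between genotypes. In set 1, 0 of the 10 had an unadjusted p under 0.05 against 2.17% of all genes, and 3 of the 10 (Trp53, Bbc3 and Eda2r) separated without overlap against 16.2% of all genes. In set 2 the edgeR test called 0.0153% of all genes and 0 of the 10, an unadjusted p under 0.05 was reached by 2 of the 10 against 8% of all genes, and Pmaip1 alone separated without overlap, against 7.85% of all genes. The interaction of genotype and set called 0 of the 10 and 0% of all genes. At an unadjusted p under 0.05 the interaction held 1 of the 10, Pmaip1, against 3.54% of all genes.

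More of the p53 genes differed between the library sets than between the genotypes, as in the rest of the transcriptome. Of the 10 genes 7 differed between set 2 and set 1 (edgeR, genotype as a covariate, adjusted p under 0.05), against 43.8% of all genes. Higher in set 2 were 5 of the 10 (Trp53, Mdm2, Cdkn1a, Pmaip1 and Phlda3), against 21.5% of all genes, and lower were 2 (Bax and Trp53inp1), against 22.2%. The 7 did not share a direction, and Eda2r, Ccng1 and Bbc3 were not called. The median log2 fold change of the 10 genes was 0.14, and that of all genes was 0.00125.

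Phlda3 had the largest difference of the 10. Its levels in set 1 were 8.83, 9.12, 10.7, 10.7 and 11.1 CPM, and in set 2 they ran from 16.7 through a median of 17.4 to 21.2 CPM. Each library of set 2 was above each library of set 1. The log2 fold change was 0.84 (SE 0.105), a level 1.79 times that of set 1, with an edgeR adjusted p of 2.91e-06. It was 0.86 in WT alone and 0.81 in cKO alone, called in both.

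Trp53 and Mdm2 were both higher in set 2. Trp53 was at 86.1 to 106 CPM in the 5 libraries of set 1 and at 109.9 to 145 CPM (median 119.7) in the 7 libraries of set 2, without overlap. Its log2 fold change was 0.34 (SE 0.0681, edgeR adjusted p 5.22e-04). Mdm2 was at 29.8 to 39.3 CPM in set 1 and at 39.3 to 56.3 CPM (median 51.1) in set 2, where the lowest library, cKO replicate 6, lay just under the highest of set 1. The log2 fold change of Mdm2 was 0.51 (SE 0.0991, edgeR adjusted p 3.60e-04), and it was called in WT alone and in cKO alone.

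Cdkn1a and Pmaip1 were higher in set 2 with overlap. Cdkn1a was at 116 to 170.4 CPM in set 1 and 141 to 198 CPM in set 2, a log2 fold change of 0.31 (SE 0.101, edgeR adjusted p 0.0195). The call was lost without WT replicate 2 (edgeR adjusted p 0.0576) or without WT replicate 4 (0.0575). Pmaip1 was at 29.9 to 40.7 CPM in set 1 and 32.6 to 62.2 CPM in set 2, a log2 fold change of 0.41 (SE 0.110, edgeR adjusted p 0.00537). In cKO alone the Pmaip1 set difference was 0.66 (SE 0.126, edgeR adjusted p 0.00144), and in WT alone it was 0.19 (SE 0.139, edgeR adjusted p 0.346), which is the same interaction as above and did not pass its test.

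Trp53inp1 was the clearest of the genes that were lower in set 2. Its levels in set 1 were 501, 505, 524, 541 and 579 CPM, and in set 2 they ran from 331 through a median of 389 to 418 CPM, without overlap. The log2 fold change was -0.47 (SE 0.0572, edgeR adjusted p 1.93e-06), and the gene was called in WT alone and in cKO alone. Bax was at 97.7, 134, 141, 153 and 157 CPM in set 1 and from 85.7 through 122 to 124 CPM in set 2, so that WT replicate 3 of set 1 lay inside the range of set 2. Its log2 fold change of -0.29 (SE 0.106, edgeR adjusted p 0.031) lost its call without cKO replicate 1 or without WT replicates 1, 2, 5 or 6, and with embryo sex as a covariate (0.0506 to 0.114).

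**Figure D3:**
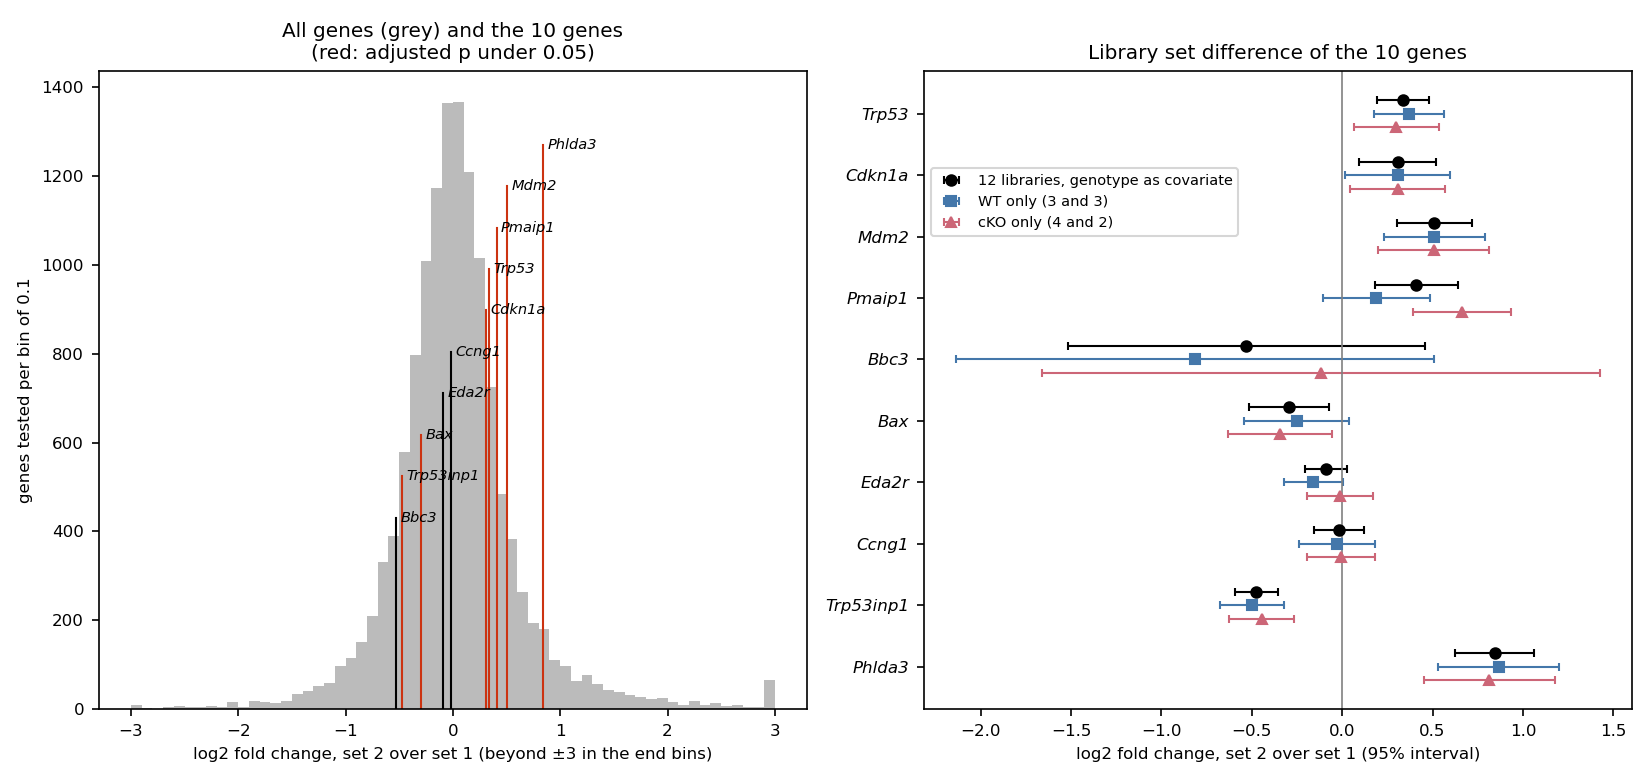
Left, histogram of the library set log2 fold change of the 13105 genes tested (grey, genes per bin of 0.1) with the 10 genes as lines whose heights serve only to separate the names, red where the edgeR adjusted p was under 0.05. Right, the same fold change of each gene with its 95% interval from 12 libraries (black), WT alone (blue) and cKO alone (pink). The 7 called genes lie on both sides of 0, from Trp53inp1 at -0.47 to Phlda3 at 0.84.

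Called within WT alone were 4 of the 10 genes (Trp53, Mdm2 and Phlda3 higher, Trp53inp1 lower), against 27.1% of all genes by edgeR. Called within cKO alone were 4 of the 10 (Mdm2, Pmaip1 and Phlda3 higher, Trp53inp1 lower), against 26.2% of all genes. The genes called in both genotypes in 1 direction were Mdm2, Phlda3 and Trp53inp1, against 18.7% of all genes. Groups did not overlap for 3 of the 10 genes over all 12 libraries, against 23.6% of all genes, for 5 in WT alone, against 41.3%, and for 7 in cKO alone, against 46.4%.

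Markers of differentiated cells and of neural progenitors moved with the library set. By library set 21.5% of all genes were higher and 22.2% lower, beside which the counts of markers stand. Of the 8 neuron markers 6 were tested, 3 were higher and 1 was lower in set 2. The lower one was Map2, at 2212 ± 208 CPM in set 1 and 1620.4 ± 83.0 CPM in set 2 (mean ± SD, n = 5 and 7). With it the marker sums were 2021 to 2591 CPM in set 1 and 1718 to 1925 CPM in set 2, and without it they were 93.7 to 119 CPM and 143 to 292 CPM. Among the higher ones was Stmn2 at 1.38 ± 0.464 CPM in set 1 and 49.3 ± 15.1 CPM in set 2 (mean ± SD, n = 5 and 7). Over the 6 astrocyte markers the sums were 2061 to 2905 CPM in set 1 and 674 to 1351 CPM in set 2, and 5 of 6 were lower. Over the 7 markers of the oligodendrocyte lineage they were 889 to 1144 CPM in set 1 and 391 to 669 CPM in set 2, and 5 of 7 were lower. Of 10 neural progenitor markers 4 were higher and 5 lower, with sums of 12529 to 13251 CPM in set 1 and 11088 to 15843 CPM in set 2. These overlapping sums hide opposite moves and are largely set by a few high genes such as Fabp7 (means of 6113 and 8737 CPM in sets 1 and 2). Vim was at 209 ± 27.3 CPM in set 1 and 440 ± 21.5 CPM in set 2 (mean ± SD, n = 5 and 7). Hes5 was at 28.1 ± 3.51 and 13.3 ± 2.14 CPM in the same order. Microglia markers summed to at most 7.76 CPM and those of meningeal fibroblasts to at most 3.48 CPM in any library, and endothelial Pecam1 reached at most 2.09 CPM. By genotype 0 markers of any list were called, and the fitted difference was positive for 0 of 6 astrocyte, 2 of 6 neuron, 3 of 7 oligodendrocyte lineage and 4 of 10 progenitor markers, against 49.6% of all genes. In RNA from whole cultures, fewer cells of a type and less RNA per cell cannot be told apart, and the part of cell types in the set differences of the p53 genes was not tested.

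Other known p53 targets, taken from lists on arrest and feedback, on death, and on repair and metabolism, were measured in the same fit. Of 47 listed genes 44 were tested and 0 were called by genotype. The fitted genotype difference was positive for 23 of the 44, with a median of 0.00585, and 4 had an unadjusted p under 0.05, against 6.14% of all genes. By library set 17 of the 44 were higher, against 21.5% of all genes, and 5 were lower, against 22.2%. Among the arrest and feedback genes 3 of 13 were higher and 2 lower in set 2, against the same shares. Plk2, a polo-like kinase, was higher by 1.28 (SE 0.155, edgeR adjusted p 2.13e-06) and Btg2, an antiproliferative gene of neural progenitors, was lower by log2 fold change -0.78 (SE 0.0785, edgeR adjusted p 2.08e-07). By genotype the smallest p values in that list were those of Gtse1 at 0.27 (SE 0.0996) and Plk2 at 0.29 (SE 0.148), with edgeR adjusted p of 0.803 and 0.806.

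In the death list 8 of 13 tested genes were higher and 1 was lower in set 2, against 21.5% and 22.2% of all genes. Pidd1, a death domain protein that activates a caspase, was higher by 0.79 (SE 0.156) and Trp53i11 by 0.74 (SE 0.150), with edgeR adjusted p of 4.07e-04 and 5.04e-04. By genotype Fas, the death receptor, was at -0.19 (SE 0.0801) and Zfp365 at 0.21 (SE 0.0798), both with an edgeR adjusted p of 0.803. Of 18 repair and metabolism genes 6 were higher in set 2, among them Polk, a translesion DNA polymerase, at 0.56 (SE 0.0745), and 2 were lower, among them Ak1, an adenylate kinase, at -0.76 (SE 0.113), again against 21.5% and 22.2% of all genes. Their edgeR adjusted p were 6.63e-06 and 2.19e-05. The smallest genotype p in this list belonged to Slc19a2, a thiamine transporter, at 0.16 (SE 0.083, edgeR adjusted p 0.813).

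Genes acting on p53 were at no called difference between genotypes either. Of 17 tested regulators 13 had a positive difference, against 49.6% of all genes, and 0 were called, led by Atm, the kinase that signals DNA breaks to p53, at 0.20 (SE 0.0731), and Crebbp, an acetyltransferase, at 0.13 (SE 0.0705). Their edgeR adjusted p were 0.803 and 0.832. By library set 5 were higher, with the checkpoint kinase genes Chek1 at 0.73 (SE 0.0835) and Atr at 0.53 (SE 0.0852) among them, and 5 were lower, against 21.5% and 22.2% of all genes. Of 9 tested BCL2 family genes outside the p53 targets 0 were called by genotype, with Bok at 0.39 (SE 0.139) and Bcl2l2 at -0.22 (SE 0.119). In set 2, 5 of the 9 were higher, among them Mcl1, the partner of NOXA, at 0.44 (SE 0.0702), and Bak1 at 0.82 (SE 0.172), and 1 was lower, against the same 21.5% and 22.2% of all genes.

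Downstream of p21, 16 cell cycle genes that p21 is known to lower were read as a group. By genotype 0 were called. The fitted difference was positive for 15 of 16, against 49.6% of all genes, with a median log2 fold change of 0.12 against -0.000996, and 4 of 16 had an unadjusted p under 0.05, against 6.14% of all genes. The 16 were measured in the same libraries and can move together, so they are not 16 separate observations. Mki67, a marker of cycling cells, was at 0.18 (SE 0.0544) and Plk1, the mitotic kinase, at 0.45 (SE 0.138), both with an edgeR adjusted p of 0.803. By library set 9 of 16 were higher and 0 lower by edgeR, against 21.5% and 22.2% of all genes, and Kif23 and Bub1, which act in mitosis, were at 0.52 (SE 0.0736) and 0.32 (SE 0.0646). Cdkn1a itself was also higher in set 2. Of 5 other inhibitors of cyclin-dependent kinases 0 were called by genotype, and in set 2 Cdkn2b was higher by 1.25 (SE 0.182) and Cdkn2c was lower by log2 fold change -0.53 (SE 0.101).

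From library to library the 10 genes did not move as 1 block. After subtracting the mean of each library set, WT replicate 1 was high for Cdkn1a (0.36), Mdm2 (0.21) and Bax (0.22), while WT replicate 6 was low for Pmaip1 (-0.56), Eda2r (-0.23), Ccng1 (-0.22) and Trp53inp1 (-0.22) and high for Phlda3 (0.24), all in log2 CPM. In cKO replicate 6, Bax (-0.38), Mdm2 (-0.30) and Cdkn1a (-0.20) were low and Ccng1 (0.12) was not. Within set 2 (n = 7) the levels of the other 9 genes were correlated with Cdkn1a, and none of the 9 relations passed an exact two-sided permutation test. The largest was Bax, with Pearson r 0.553 (exact permutation p 0.188, adjusted over the 9 relations 0.770) and Spearman rho 0.679 (exact permutation p 0.110, adjusted 0.713). Without cKO replicate 3 and WT replicate 6, the libraries farthest from the median of Cdkn1a, the Bax r was 0.543. Phlda3 had the most negative value, r -0.459 (exact permutation p 0.329, adjusted 0.770) with rho -0.571 (exact permutation p 0.200), and r was 0.182 without those 2 libraries.

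**Figure D4:**
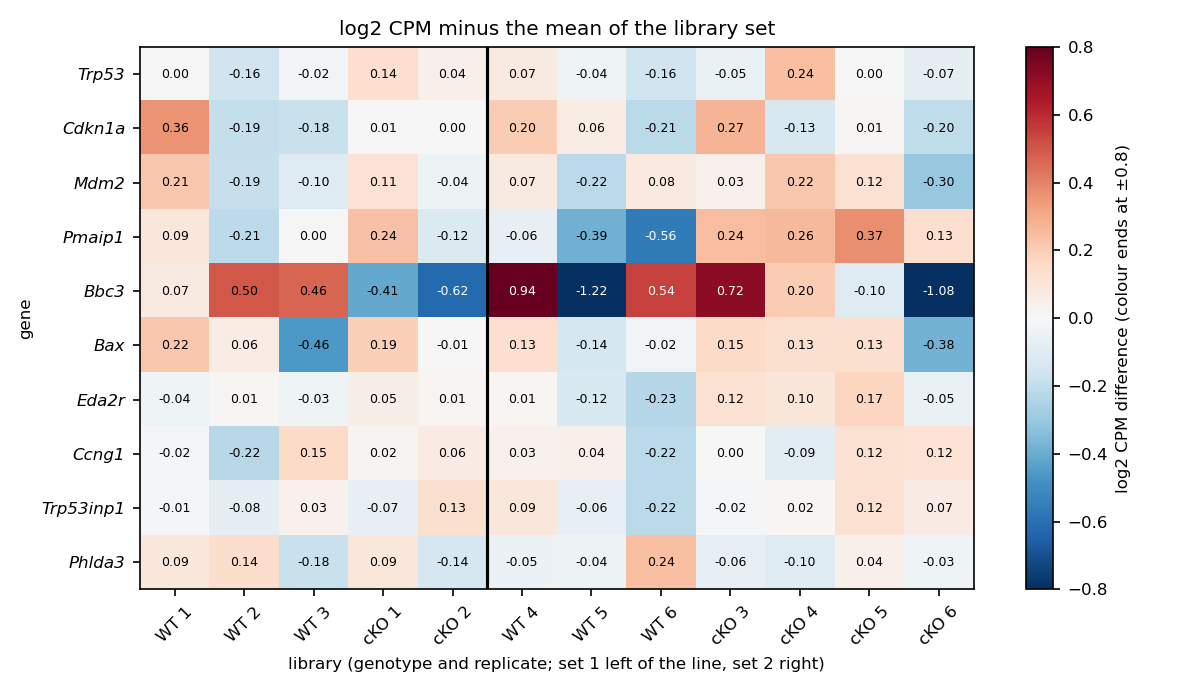
log2 CPM of each gene (vertical) in each library (horizontal, set 1 left of the line and set 2 right of it) minus the mean of its library set, written in each cell and coloured up to ±0.8. No column is of 1 colour throughout, the cKO cells of Pmaip1 in set 2 are all above 0 and its WT cells there all below 0, and Bbc3, with few reads, varies most.

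The genes outside every list whose levels were most like the mean standardised level of the 9 targets, centred by set over 12 libraries, were Kntc1 (r 0.964), Hira (0.948), Iffo2 (0.911), Cxadr (0.908) and Wdr75 (0.905). These were the highest of the tested genes outside every list and are given as a description only. Their own genotype differences were 0.04 to 0.17 on the log2 scale and 0 of the 5 were called by edgeR.

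HAC-seq gave a second readout of the RNAs of these genes. Hydrazine and aniline cleave RNA at 3-methylcytidine, so that reads begin 1 base downstream, and the cleavage ratio is the share of reads at a C that begin there. The deposited table listed C sites in 7 of the 10 genes, and 5 genes had sites with a coverage of at least 50 reads in each library and a mean ratio of at least 5%: Cdkn1a (14 sites of 141), Ccng1 (11 of 187), Bax (3 of 31), Phlda3 (3 of 17) and Eda2r (1 of 4). Of these 32 sites 0 were called between cKO and WT by the quasi-binomial test, against 0.00755% of all 13240 sites tested, which is 1 site. At an unadjusted p under 0.05 there were 2 of the 32, against 8.64% of all sites. The minimum was met by the mean of both genotypes at 21 of the 32 sites, by that of WT alone at 4 and by that of cKO alone at 7, and at these last 11 the filter itself favours a difference. With reads pooled over the libraries of each genotype, the ratio was higher in cKO at 23 of the 32 sites and at 61.2% of all sites. The median of this pooled difference was 0.666 percentage points for the 32 and 0.566 for all. Most ratios were close to the 5% minimum. Mean ratios of the tested Cdkn1a sites ran from 5.09% to 7.73%, and the median over all 13240 tested sites was 6.85%. Whether any of these sites carries 3-methylcytidine was not tested, and passing the minimum does not show it. Values of single sites below are library ratios and their means.

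In Cdkn1a the site of smallest p, at position 29099413 of chromosome 17 (plus strand), had ratios of 5.56%, 5.88%, 7.50% and 9.22% in WT and 2.65%, 2.97% and 4.48% in cKO, at coverages of 101 to 206 reads. This site met the minimum ratio only through WT, the group where it is higher, so the direction and size of its difference are partly set by the filter. The means were 7.04% ± 1.69 (SD, n = 4) and 3.37% ± 0.974 (SD, n = 3), with an adjusted p of 0.575 over all sites by the quasi-binomial model and limma's squeezed dispersions. In Ccng1 the site of smallest p, at position 40752126 of chromosome 11 (minus strand), had ratios of 1.89%, 2.61%, 4.50% and 4.97% in WT and of 6.38%, 6.85% and 15.8% in cKO, with an adjusted p of 0.575 by the same model. It met the minimum only through cKO, where it is higher, so its difference too is partly set by the filter. The highest ratio of the 32 was at Ccng1 position 40750477, with 16.0% ± 3.52 in WT and 15.1% ± 4.20 in cKO (SD, n = 4 and 3), and these overlapped. The sites of smallest p in Bax, Phlda3 and Eda2r differed by 2.23, 2.10 and 0.763 points, with adjusted p of 0.725, 0.807 and 0.949 by the same limma-based model, and those of Bax and Eda2r also met the minimum only through cKO. Positions are those of the deposited table, in build GRCm38.p6.

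**Figure D5:**
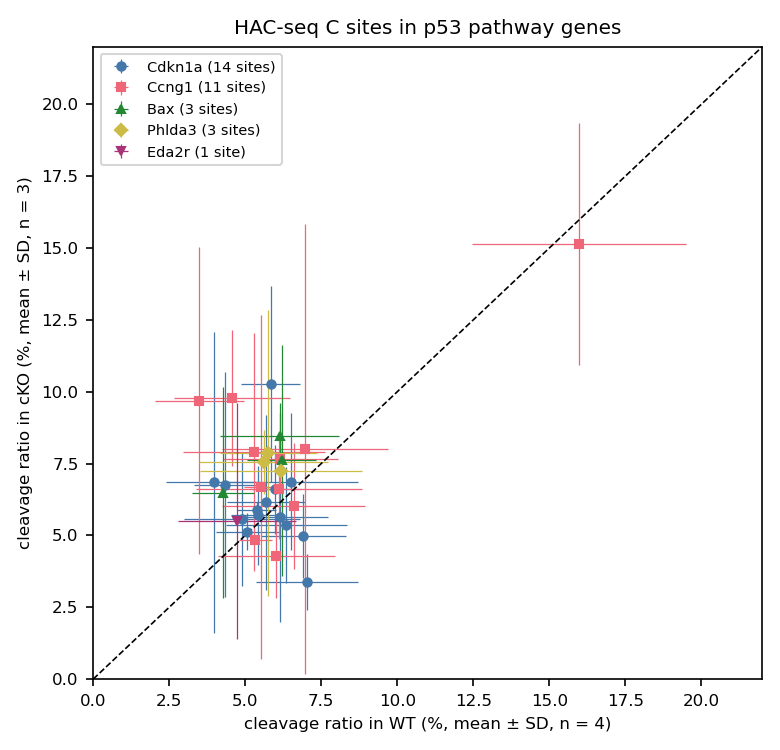
Cleavage ratio of the 32 tested C sites in 5 genes, WT (horizontal, mean ± SD, n = 4) against cKO (vertical, mean ± SD, n = 3), in percent, with the line of equality dashed. Most sites lie between 3.5% and 10% in both genotypes with error bars that cross the line, and the Ccng1 site near 16% in WT lies apart from the rest.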

How the data were processed

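Per the submitters' processing notes, reads were demultiplexed with bcl2fastq 2.17.1.14 and processed with Trimmomatic 0.32 and STAR 2.5.2a on mouse build GRCm38 (HAC-seq, GRCm38.p6). No source used here gives the counting program, its annotation or the strand setting. The authors deposited 1 RNA-seq table of raw counts per gene. The deposited HAC-seq table holds, for each C site and library, the read starts 1 base downstream (as signal), the count of reads covering the site, and the share of the former as a fraction. Column use was complete, with 0 columns left out.

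Of 26621 genes, 6309 had no read. Counts of 1 to 10 were odd in 17.4% of cases and counts above 100 and up to 1000 in 50.1%. No 2 libraries of a group agreed within sampling noise (smallest chi-square per degree of freedom 8.96). edgeR 4.0.16 (R 4.3.3) was run on the 13105 genes that passed its filterByExpr with genotype as group, after TMM scaling. Library set and genotype were fitted together, and each was tested two-sided by the quasi-likelihood F statistic, with Benjamini-Hochberg adjustment over all genes and a threshold of 0.05. The same test was run within each set, within each genotype, and on the interaction. log2 CPM used a prior count of 2. Alternatives were DESeq2 1.42.0, limma 3.58.1 (voom), other scaling and filters, halved counts, a replicate block, embryo sex as a covariate, no set covariate, and leaving out each library.

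Read starts at C sites were modelled as quasi-binomial, with limma squeezing the dispersions. Correlations and promoter scans used Python 3.11.15 and scipy 1.17.1. The fits were tried on simulated data without a library set effect, at 1 fixed coverage and with larger site differences than those in the 10 genes. That trial therefore does not show how well differences of the size seen here would be found. All 10 genes are named in each comparison. Of each other list, any gene past the threshold by genotype or interaction and the 2 of smallest p by genotype and by set could be named, and of each gene's C sites the one of smallest p. The 10 genes and the lists were chosen with earlier results of these data known. Listed genes that the table holds under an older symbol (Map2, Pidd1, Tigar, Dglucy and Cop1) were matched through RefSeq synonyms.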

Additional observations from a re-analysis of the deposited data

Results flagged for a closer look

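Among 35 groups of 4 or 6 values checked, 1 held a value far from the others: Bax in the 4 cKO libraries of set 2, where cKO replicate 6 was at 85.7 CPM and the other 3 at 122, 122 and 124 CPM. Chance alone flags about 1 group in 20. Without cKO replicate 6 the Bax difference by genotype was 0.14 on the log2 scale, and no call followed (edgeR adjusted p 0.769).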

How the results depend on the processing

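The replicate numbers of the labels did not pair the RNA-seq libraries: deviations of same-numbered WT and cKO libraries had correlations of -0.0486 to 0.172. With the number as a replicate block, genes called were 2 by genotype and 1024 by library set (5736 without), where only replicate 3 has its 2 libraries in different sets. The 10 genes then gave 0 calls by genotype and 3 by set, and the sign turned for Bax by genotype (-0.0361) and for Bbc3 (0.30) and Bax (0.38) by set. By genotype, no filter gave 65 genes (20 higher, 45 lower) and 1 of the 10 (Pmaip1), DESeq2 gave 2, limma-voom gave 1, and leaving out each library gave 0 to 1 (1 without WT replicate 3 or 6). The interaction gave 2 genes with DESeq2, 35 with no filter and 0 to 1 with a library left out (1 without cKO replicate 3), where without a cKO library of set 1 the other is assumed to vary like the other groups. DESeq2 called 1 gene within set 1 and 6 within set 2 (2 by edgeR), 1 of them Pmaip1. Leaving out a library of set 2, an alternative added after seeing the data, gave 0 to 3 genes there (1 without WT replicate 4, 0 without WT replicate 5) and 0 of the 10. By library set, leaving out each library gave 4957 to 5727 genes and 5 to 7 of the 10. C sites called ran from 1 to 22 with a library left out (2 without cKO replicate 1, 22 without cKO replicate 2), 0 of them in the 10 genes. The cause of these differences was not tested.

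Without the set covariate the sign turned by genotype for Cdkn1a (0.0267), Trp53inp1 (-1.38e-05) and Phlda3 (0.0513). With a library left out, Cdkn1a by genotype ran from -0.0810 to 0.0515 and Ccng1 by set from -0.0575 to 0.0287. Within set 2 the same gave, by genotype, Trp53 -0.00294 to 0.13, Cdkn1a -0.13 to 0.0743, Mdm2 -0.0469 to 0.14, Bbc3 -0.84 to 0.22, Bax -0.0354 to 0.14 and Phlda3 -0.14 to 0.00574, so the direction of these 6 was not settled. Of 388 alternative values by genotype and set, 364 kept direction and call, 12 turned sign, 11 lost and 1 gained a call. Depth limits Bbc3, at 2 to 19 reads, most.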
